A study of Mus musculus with 10 samples.

Results

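Every listed region nearest to Jph2 or Trdn held fewer reads in atrial nuclei of Prrx1(R1A)-/- mice than in those of controls. Of 5327 regions that the authors listed as differing between the groups, 32 had a 500 bp bin whose nearest protein-coding RefSeq gene body was Jph2 (17 regions) or Trdn (15 regions), and these 32 are described here. Accessible chromatin was measured by ATAC-seq, in which a transposase cuts open DNA and tags it for sequencing. Mice were 8 to 12 weeks old, both atria of an animal were pooled, and nuclei were sorted on PCM1, a protein around cardiomyocyte nuclei. The Prrx1(R1A)-/- group, called R1A-deleted below, had 4 animals with 1 library each. The control group, whose genotype is labelled only as control, also had 4 animals, of which animals 1 and 3 had 2 libraries each that were summed. Where the R1A allele begins and ends is not stated in the labels, which name no driver line or transgene. Whether a loss of reads reflects fewer open nuclei or less opening per nucleus cannot be told apart in such pooled nuclei.

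Both genes serve the dyad, where the surface membrane of a heart muscle cell meets the sarcoplasmic reticulum, its internal calcium store. Junctophilin 2, the product of Jph2, is anchored in the reticulum and grips the surface membrane, which holds calcium entry channels and calcium release channels close together. Triadin, the product of Trdn, sits in the reticulum membrane beside the release channel and ties it to calsequestrin, the calcium-binding protein of the store. Atrial myocytes have a sparser tubule network than ventricular ones. Transcripts of Trdn end at different places, which gives separate cardiac and skeletal muscle forms.

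The authors listed each region because it differed between these same libraries, so the members' changes are a description and their p-values are no separate evidence. All 17 Jph2 regions and all 15 Trdn regions were lower in R1A-deleted atria, whereas 33.3% of all listed regions were lower. The edgeR quasi-likelihood test with Benjamini-Hochberg adjustment called the same 17 and 15 as lower, beside 33.3% of the 5326 regions that it tested. Reads below are scaled reads, the reads of a bin divided by a library factor in which a library of average size is 1. Every bin spans 500 bp, so levels of different bins are set side by side with no correction for width. No other correction between bins was made, and a more open bin below is one with more scaled reads. All 4 R1A-deleted animals lay below all 4 controls at 16 of 17 Jph2 regions and at 12 of 15 Trdn regions, against 29.6% of all listed regions and 88.8% of the 1776 listed as lower.

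Reads in the listed bins of a library ranged from 151976 to 521778, which is not the sequencing depth, and the lowest total was that of control 2. The table holds called regions alone, so the labelled cell type could not be checked against unchanged marker genes. Of 7 cardiomyocyte markers, 3 (Actn2, Nppa and Ryr2) had a listed region, with 24 regions lower and 6 higher. Ryr2 alone held 15 of the lower and all 6 of the higher ones, and Actn2 held 8 lower. Among markers of other cells, 1 of 6 fibroblast genes had 1 higher region, 3 of 5 endothelial genes had 3 lower, 2 of 5 smooth muscle and pericyte genes had 2 lower and 1 higher, and 1 of 4 immune genes had 1 higher. The part of other cell types in the members' losses was not tested.

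The stretch before the start sites of Jph2 is shown because the last of its lower regions covers these sites. Jph2 lies at mm10 chromosome 2, 163336242 to 163398049, on the minus strand. Its RefSeq (GRCm38.p6) promoter entries give 2 start sites 20 bases apart, at 163397993 and 163397973. The gene body reaches beyond both sites, to 163398049. The last bases of the stretch below, with its E-box, therefore lie inside the gene body. The 250 bases before the first of these, chr2:163397994-163398243 on the minus strand, are given 5′ to 3′ with the E-box CANNTG in capitals.
Jph2 promoter: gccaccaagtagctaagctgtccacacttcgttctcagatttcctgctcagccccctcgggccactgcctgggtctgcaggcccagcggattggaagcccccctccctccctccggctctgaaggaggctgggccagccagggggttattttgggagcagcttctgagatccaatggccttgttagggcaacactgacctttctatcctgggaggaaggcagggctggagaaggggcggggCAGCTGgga
This stretch was 62.0% G or C, and its single E-box began 9 bases before the start site. An E-box on either strand occurs in 66.2% of 32851 RefSeq promoter stretches of this length, so its presence does not set Jph2 apart. On both strands no match was found to GATAA (in 22.6% of the promoters), GGAATG, the MCAT motif (12.6%), TAATTA, a homeobox core (4.84%), TATAAA (12.4%), the MEF2 site (2.92%) or the CArG box (1.47%).

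The Jph2 regions stretched over 69.25 kb, from 163328751 to 163398000, and are numbered 1 to 17 from the lower coordinate, which is the 3′ side of the gene. Bins of 15 regions lay inside the 61.8 kb gene and those of regions 1 and 2 lay 4.99 and 1.74 kb past its 3′ end. Merged regions together covered 33.6% of the gene body. The longest stretch with no listed region was 17.25 kb, between regions 11 and 12, and the median gap was 1.00 kb. Control means ran from 35.4 to 276 scaled reads with a median of 61.7, and R1A-deleted means from 9.61 to 133 with a median of 29.9. The median log2 change of the 17 regions was -0.98 (range -1.86 to -0.55), and that of all lower regions was also -0.98. With TMM factors every log2 change of a member would be further below 0, by a median of 0.60. In the authors' deposited table the members' median was -0.83, against -0.80 for all lower regions.

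**Figure D1:**
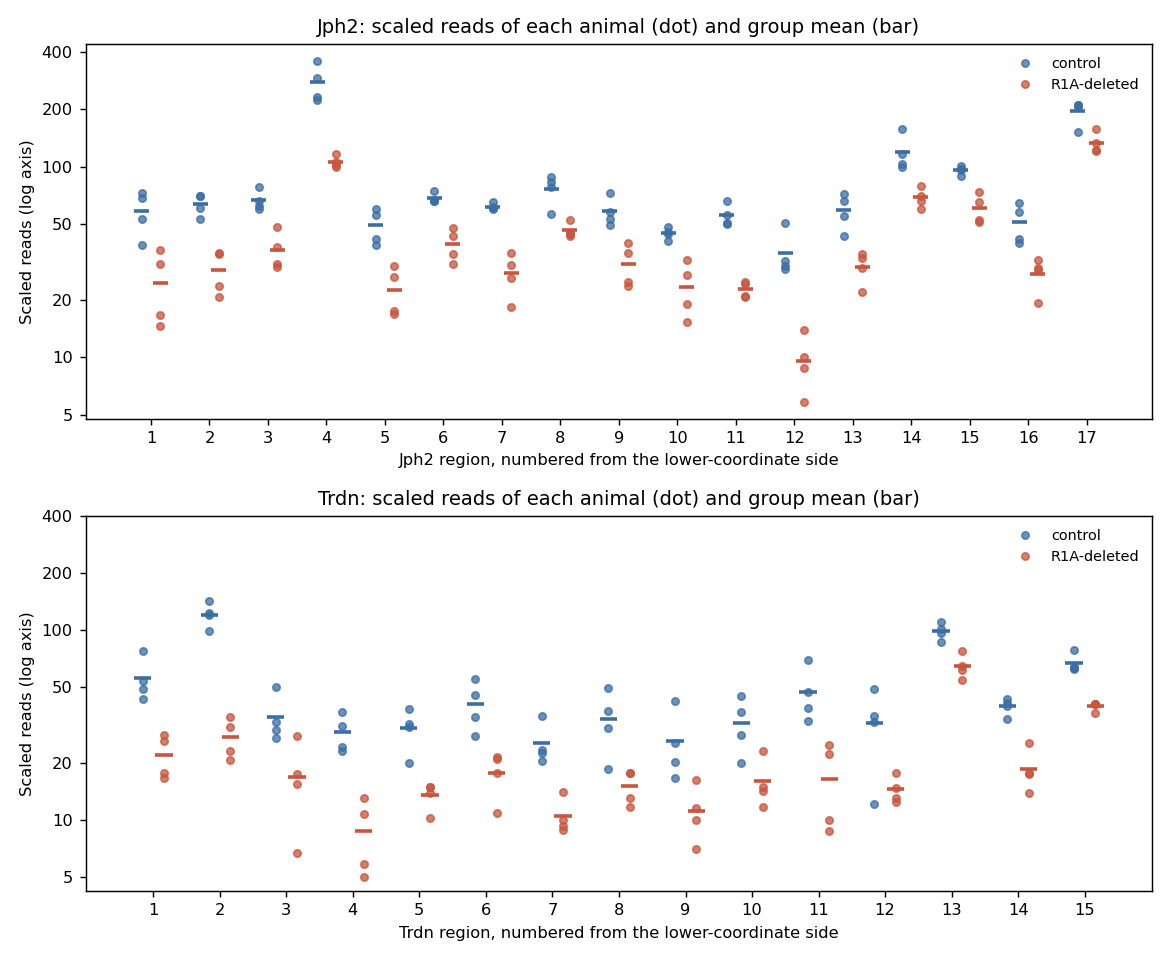
Scaled reads (log axis) in each listed region of Jph2 (top) and Trdn (bottom), numbered from the lower-coordinate side. Dots are animals (4 per group) and bars are group means. R1A-deleted dots sit below the control dots at all but Jph2 region 17 and Trdn regions 3, 10 and 12.

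The most open Jph2 bin belonged to region 4, of 4000 bp at 163350751 to 163354750, inside the gene and 43.8 kb from its higher-coordinate end. Its scaled reads were 292, 358, 233 and 222 in controls 1 to 4 and 116, 99.6, 101 and 106 in R1A-deleted animals 1 to 4. The R1A-deleted animals were close to each other and all far below the lowest control. The group means were 276 ± 62.4 and 106 ± 7.47 (SD, n = 4 each), and the log2 change between them was -1.36 ± 0.15 (SE), with an adjusted p of 7.97e-08 in edgeR. Pooled over animals, R1A-deleted reads came to 40.4% of those in controls, with an exact 95% interval of 36.3 to 44.8 that covers counting error only. In the authors' deposited table this region had a log2 change of -1.23 (adjusted p = 1.06e-11) and ranked 53 among 1776 lower regions.

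The lowest log2 change at Jph2 was in region 12, of 2000 bp at 163389001 to 163391000, whose bin lay 8.55 kb from the start end of the gene. Controls had 30.2, 29.0, 50.4 and 32.1 scaled reads and R1A-deleted animals 13.9, 8.74, 9.98 and 5.86. The groups did not overlap, and control 3 stood above the other controls. The log2 change was -1.86 ± 0.34 (SE), with an adjusted p of 4.41e-05 in edgeR. Pooled reads came to 26.3% of those in controls (exact 95% interval 18.6 to 36.5). The libraries of control 3 differed here, with 94 reads in the first and 29 in the second (73.8 and 24.9 scaled reads). Without the first of them the log2 change was -1.53, and without control 3 it was -1.60. The authors' deposited table gave -1.25 (adjusted p = 0.000295).

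Region 2, the widest at Jph2 with 7000 bp (163331501 to 163338500), crossed the 3′ end of the gene. Its scaled reads were 52.9, 70.4, 70.5 and 60.9 in controls and 20.8, 23.6, 34.9 and 35.2 in R1A-deleted animals, with no overlap. The log2 change was -1.16 ± 0.23 (SE), with an adjusted p of 8.19e-05 in edgeR. Region 1, at 163328751 to 163331250, had 58.3 ± 15.4 scaled reads in the control group and 24.7 ± 10.7 in the R1A-deleted one (SD, n = 4). Its log2 change was -1.28 ± 0.27 (SE), with an adjusted p of 0.000155 in edgeR. Its bin lay 4.99 kb from Jph2 and 6.58 kb from Tox2, the nearest protein-coding gene on the other side.

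At the start of the gene the loss was the smallest of the 17. Region 17 (163397251 to 163398000) holds the start site, and its bin shares 7 bases with the promoter stretch printed above. Controls had 207, 211, 210.3 and 152 scaled reads and R1A-deleted animals 120.2, 122, 157 and 133. R1A-deleted animal 3 was above control 4, which was low among the controls, so the groups overlapped. The means were 195 ± 28.9 and 133 ± 17.2 (SD, n = 4), and the log2 change was -0.55 ± 0.15 (SE), with an adjusted p of 0.000921 in edgeR. Pooled reads came to 66.4% of those in controls (exact 95% interval 60.0 to 73.4). In the authors' deposited table it ranked 1748 of 1776 lower regions by size of change. This was the second most open Jph2 bin in controls.

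The other 12 Jph2 regions lay between these. Region 3, 4.76 kb inside the 3′ end, and regions 5 to 11, in the middle of the gene, had log2 changes from -0.75 (region 8) to -1.28 (region 11). Region 7, for instance, went from 61.7 ± 2.22 to 27.6 ± 7.18 scaled reads and region 11 from 55.6 ± 7.55 to 22.7 ± 2.12 (SD, n = 4). Regions 13 to 16, within 6.30 kb of the start end, had log2 changes of -1.01, -0.83, -0.66 and -0.90, and of these region 14 was the most open in controls (119 ± 26.3 scaled reads, against 68.9 ± 8.23 in R1A-deleted animals). The 11 regions on the 3′ side of the longest gap had a median log2 change of -1.09 and the 6 on the start side -0.86, with ranges that overlap, and this difference was not tested. Regions 6 to 9 also overlapped Gm35750, a long noncoding RNA gene inside Jph2 (163356334 to 163365260). Their log2 changes ran from -1.20 to -0.75.

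**Figure D2:**
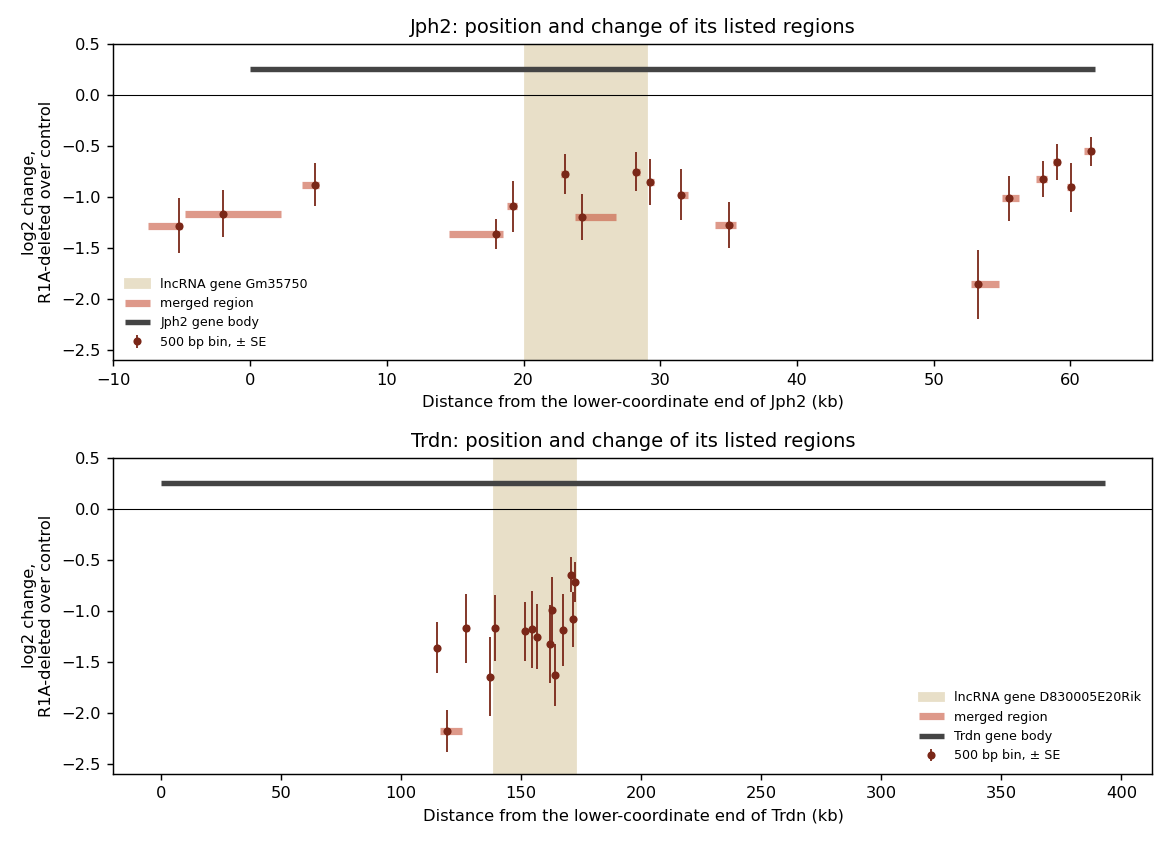
Log2 change (R1A-deleted over control; points with ± SE from edgeR, 4 animals per group) of each listed region by its distance in kb from the lower-coordinate end of Jph2 (top) or Trdn (bottom). Thick red lines are merged regions, the grey line is the gene body and the shaded band a long noncoding RNA gene. Jph2 regions run from past the 3′ end to the start end of the gene, with a longest gap of 17.25 kb. All Trdn regions lie between 115 and 173 kb.

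The Trdn regions were packed into a short stretch of a long gene. Trdn lies at chromosome 10, 33083483 to 33476709, and spans 393 kb. Its 15 regions, numbered from the lower coordinate, all lay inside it within 58.25 kb (33198001 to 33256250), or 14.8% of its length, at 115 to 173 kb from the lower-coordinate end. None was listed near either end of the gene. Exons and strand of Trdn were not used here. Of the 15 bins, 11 (regions 5 to 15) overlapped D830005E20Rik, a long noncoding RNA gene of 34.0 kb inside Trdn (33222345 to 33256357). The 11 had a median log2 change of -1.18 and the 4 outside it -1.50. This difference was not tested, and reads in shared sequence cannot be given to 1 gene or the other.

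Control means at Trdn ran from 25.3 to 121 scaled reads with a median of 34.9, and R1A-deleted means from 8.69 to 64.7 with a median of 16.5. The median log2 change was -1.19 (range -2.18 to -0.65). In the authors' deposited table it was -0.92. The median coefficient of variation across controls was 27.1% at Trdn and 17.2% at Jph2, against 18.4% over all lower regions. Across R1A-deleted animals it was 26.1% at Trdn, 20.7% at Jph2 and 22.2% over all lower regions. These differences were not tested.

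Region 2 was the widest (9250 bp, 33199751 to 33209000), and its bin was the most open and the most reduced at Trdn. As for every region, its values are those of 1 bin of 500 bp (33202251 to 33202750), not of the whole merged region. Controls had 120 scaled reads in animal 1, 99.3 in animal 2, 142 in animal 3 and 123 in animal 4. R1A-deleted animals had 23.1, 35.0, 20.8 and 30.8. Every R1A-deleted animal was well below the lowest control. The means were 121 ± 17.6 and 27.4 ± 6.60 (SD, n = 4), and the log2 change was -2.18 ± 0.20 (SE), with an adjusted p of 5.87e-09 in edgeR. Pooled reads came to 21.0% of those in controls (exact 95% interval 17.1 to 25.5). The authors' deposited log2 change of -1.89 ranked 5 of 1776 lower regions.

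Its neighbours on both sides were lower as well. Region 1, at 33198001 to 33199000, had a log2 change of -1.36, with 56.1 ± 15.2 scaled reads in the control group and 22.1 ± 5.81 in the R1A-deleted one (SD, n = 4). Region 3, at 33210501 to 33211750, had 50.1, 26.9, 32.8 and 29.9 scaled reads in the control group and 15.4, 17.5, 6.65 and 27.9 in the R1A-deleted one. There R1A-deleted animal 4 was just above control 2, and animal 3 was far below the rest. Region 4 (33220251 to 33220750) was at 28.9 ± 6.59 and 8.69 ± 3.90 scaled reads (SD, n = 4), with 163 reads over all controls and 39 over all R1A-deleted animals.

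Inside D830005E20Rik, region 11 (33246751 to 33248250) had the second lowest authors' change at Trdn. Controls had 69.6, 33.1, 47.2 and 38.7 scaled reads and R1A-deleted animals 22.3, 8.74, 9.98 and 24.9. The groups did not overlap although each spread widely. The log2 change was -1.63 ± 0.30 (SE), with an adjusted p of 5.2e-05 in edgeR, and the authors' deposited table gave -1.22 (adjusted p = 0.00015). Regions 5 to 9 had log2 changes from -1.33 to -1.17, at control means of 25.3 to 40.8 scaled reads.

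The remaining overlaps were at regions 10 and 12. At region 10 controls had 45.0, 37.2, 27.9 and 19.9 scaled reads and R1A-deleted animals 23.1, 14.9, 14.1 and 11.7, so R1A-deleted animal 1 was above control 4. At region 12 control 4, with 12.2 scaled reads, was below all R1A-deleted animals (17.7, 13.1, 12.5 and 14.7), while the other controls were at 32.8 to 49.2. Region 10 had the largest authors' adjusted p of the 32 members (0.0483 in the authors' deposited table).

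At the higher-coordinate end of the stretch, region 13 (33254001 to 33254500) was the least reduced. Controls had 111, 86.9, 101 and 96.3 scaled reads and R1A-deleted animals 61.6, 64.7, 54.9 and 77.7, with no overlap. The log2 change was -0.65 ± 0.17 (SE), with an adjusted p of 0.00106 in edgeR. Pooled reads came to 61.4% of those in controls (exact 95% interval 53.0 to 70.9). Region 14 changed by -1.08 and region 15 by -0.72. Regions 13 and 15 were, after region 2, the most open Trdn bins in controls (98.9 ± 10.03 and 67.1 ± 7.71 scaled reads; SD, n = 4).

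**Figure D3:**
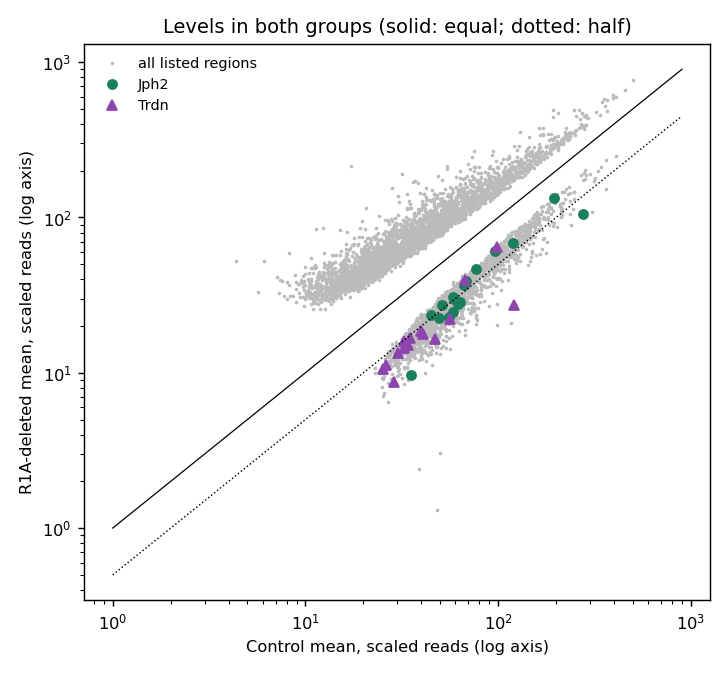
Mean scaled reads of control (x) and R1A-deleted animals (y), both on log axes, for all 5327 listed regions (grey), Jph2 (green circles) and Trdn (purple triangles); the solid line marks equal levels. All 32 members fall in the lower cloud, and Trdn region 2 (121 against 27.4) stands at its lower edge.

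Across the members of a gene, level and width went with the size of change to different degrees. At Jph2 the wider merged regions were the more reduced (Spearman's rho between width and log2 change -0.80 over 17 regions), and at Trdn less clearly so (-0.47 over 15), against -0.24 over 1775 lower regions. More open control bins changed less at Jph2 (rho 0.50 between control mean and log2 change) and among all lower regions (0.51), but not at Trdn (0.05). These are descriptions over regions that share libraries, and control reads enter both the level and the change. Bins with fewer reads also had to change more to be listed, which by itself ties level to change among listed regions. How the authors merged bins into regions and chose the 1 bin of each is not given, so width may follow the change.

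Summing the bins of a gene gave each animal 1 value per gene. Over the 17 Jph2 bins, controls had 1419, 1548, 1543 and 1231 scaled reads and R1A-deleted animals 685, 715, 807 and 746. As shares of the control mean the R1A-deleted animals were at 47.7%, 49.8%, 56.2% and 52.0%. Over the 15 Trdn bins, controls had 827, 666, 732 and 635 and R1A-deleted animals 329, 331, 256 and 336, or 46.0%, 46.3%, 35.8% and 46.9% of the control mean. Control 4 was the lowest control for both genes. R1A-deleted animal 3 was the highest of its group for Jph2 and the lowest for Trdn. It was highest at 7 of 17 Jph2 regions and lowest at 8 of 15 Trdn regions.

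**Figure D4:**
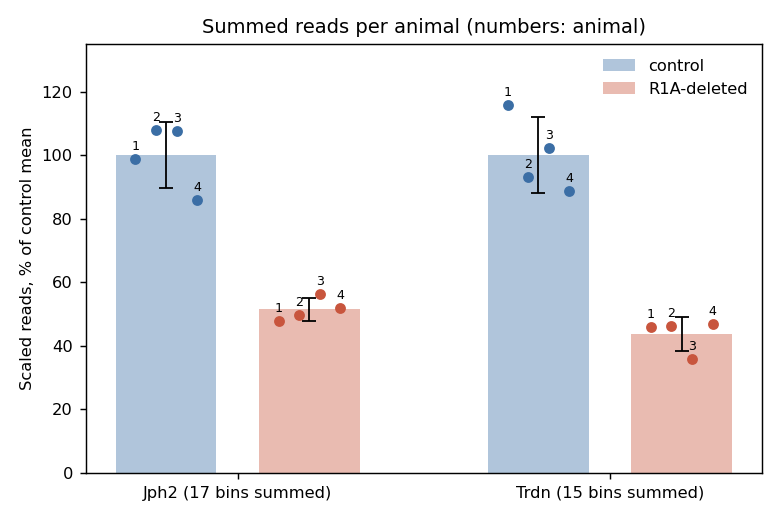
Scaled reads summed over the listed bins of each gene, as a percentage of the control mean. Dots are animals with their numbers, bars are means and whiskers ± SD (n = 4). R1A-deleted animals lie at 47.7 to 56.2% for Jph2 and 35.8 to 46.9% for Trdn, and the controls at 85.8 to 115.7%.

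The repeat libraries gave near values for these sums. Control 1 had 1403 and 1432 scaled reads at Jph2 and 826 and 828 at Trdn in its first and second library. Control 3 had 1603 and 1478 at Jph2 and 722 and 744 at Trdn.

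Few genes gathered as many lower regions. Of 3149 genes with a listed region, 5 had at least 15 lower ones, and 3 of these, Pam (32), Jph2 and Trdn, had none higher. Among 119 genes with at least 5 regions, 29 had only lower and 50 only higher ones. Lower regions were also set against gene length, with those outside the gene body counted too (2 at Jph2). Jph2 had 27.5 per 100 kb and Trdn 3.81, which ranked 9 and 30 of these 119. Atp2a2, the calcium pump, had 41.1 and Ryr2, the release channel, 2.71. The median log2 change of lower regions was -0.68 at Atp2a2 (20 regions) and -0.80 at Ryr2 (15 regions), beside -0.98 at Jph2 and -1.19 at Trdn. The median control means of these regions were 138 scaled reads at Atp2a2, 65.1 at Ryr2, 61.7 at Jph2 and 34.9 at Trdn. Regions were listed only at an adjusted p under 0.05, so bins with fewer reads had to change more to be listed. The differences between these medians were not tested. Those that involve Atp2a2 or Trdn cannot be told apart from the differences in level, while Ryr2 and Jph2 had similar median levels.

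The other genes of the dyad and reticulum were mixed in direction. Of 45 genes on a list of dyad, calcium release and reticulum genes, 20 had a listed region. Besides Jph2 and Trdn these were 18 genes, of which 4 (Ryr3, Tmem38b, Pln and Ehd4) had only lower, 8 only higher and 6 both. The list held 94 lower and 41 higher regions, and Jph2 and Trdn together made up 34.0% of the lower ones. Without them, 62 of the regions were lower and 41 higher (60.2% lower, against 33.3% of all listed regions). Atp2a2 and Ryr2 held 35 of these 62 lower regions, and without these genes as well 27 were lower and 34 higher. The 103 regions of the 18 genes had a median of -0.61 among the log2 changes of the authors' deposited table, and all listed regions one of 0.70. Taken by gene, the direction turned: the median of the authors' deposited log2 changes was above 0 in 11 of the 18 genes and below 0 in 7, and the median of these gene medians was 0.67.

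Ryr2, the release channel beside which triadin sits, had 15 lower and 6 higher regions, while the other partners and paralogs on the list had few. Jph1, the junctophilin of skeletal muscle, had 1 higher region, 111 kb from the gene (13.9 ± 1.88 to 28.8 ± 2.49 scaled reads; SD, n = 4). Asph, whose junctin form also binds the release channel, had 1 higher region inside the gene (97.2 ± 16.8 to 192 ± 30.8 scaled reads). No region was listed at Casq2, the cardiac calsequestrin that triadin binds, at Hrc, or at the junctophilin genes Jph3 and Jph4.

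At the channels and pumps, the region of largest change was taken for each gene. In Atp2a2 it had 191 ± 11.4 scaled reads in the control group and 92.9 ± 11.7 in the R1A-deleted one (SD, n = 4), and its log2 change was -1.05. For Ryr2 it was a region 565 kb from the gene with a log2 change of -1.54, and for Ryr3, another release channel, one inside the gene with -1.18. Cacna1c, the pore of the L-type calcium channel, had 7 higher and 5 lower regions, the largest at 1.43. Cacnb2, its beta subunit, had 8 lower and 2 higher, and the largest was a higher one at 1.73. That bin was low in controls, with 9.30 ± 6.56 scaled reads, against 37.3 ± 8.48 in R1A-deleted animals (SD, n = 4). Itpr1, the inositol trisphosphate receptor, had 5 regions, all higher (largest 0.95).

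Among genes of the tubule membrane and its regulators, Dysf, which encodes the membrane repair protein dysferlin, had 8 regions, all higher. Its largest change, 1.45 on the log2 scale, was 13.9 kb from the gene, with 129 ± 10.4 scaled reads in the control group and 353 ± 31.8 in the R1A-deleted one (SD, n = 4). Ehd4, a membrane trafficking gene, had 6, all lower (largest -1.10). Camk2d, a calcium-dependent kinase, had 3 higher and 1 lower region (largest 1.35). The bin of that largest change was low in controls, with 10.7 ± 5.40 scaled reads, against 30.2 ± 9.53 in R1A-deleted animals (SD, n = 4).

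**Figure D5:**
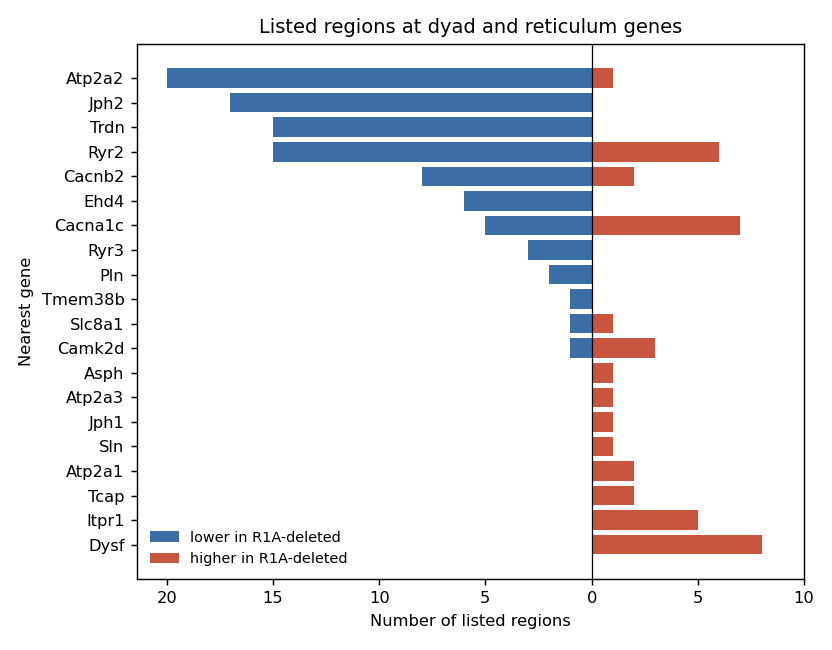
Number of listed regions nearest to each of the 20 dyad and reticulum genes that had any, lower in R1A-deleted atria to the left and higher to the right. Jph2 (17) and Trdn (15) have bars to the left alone, and Dysf (8) and Itpr1 (5) to the right alone.

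The run of lower regions at Trdn ended inside the gene on both sides. At Jph2 the run reached from a bin 4.99 kb past the 3′ end to the start end. Within 500 kb of the Trdn regions no other region was listed; the next were 1145 kb below, in Nkain2, and 1205 kb above, 21.4 kb from Frk. Both were lower (log2 change -1.27 and -1.28). Within 500 kb of the Jph2 regions there were 5 others, of which 1 was lower and 4 higher. The nearest below, 353 kb away in L3mbtl1, had a log2 change of -1.32 ± 0.25 (SE), with an adjusted p of 5.85e-05 in edgeR. The nearest above, 60.75 kb away by Gdap1l1, was higher, with 47.8 ± 12.8 scaled reads in the control group and 104 ± 16.05 in the R1A-deleted one (SD, n = 4). Its log2 change was 1.04 ± 0.19 (SE), with an adjusted p of 5.18e-05 in edgeR. Which gene, if any, a region acts on was not measured.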

How the data were processed

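The deposited table gives, per the file headers, merged regions with 1 bin of 500 bp each, which the headers label sigbin. Per the submitters' processing notes, BWA, bedtools and DESeq2 were used, with build mm10; what each did, any cut-site shift and the handling of duplicates are not given in the labels. The authors' deposited counts were handled as estimated counts because 17 cells hold 0.1, which were rounded to 0. The deposited log2 fold change, control over R1A-deleted, had its sign turned. The deposited p-values are adjusted ones under 0.05. The deposited group signal is a geometric mean of counts and was used to set the scale.

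Repeat libraries, read from the titles as belonging to 1 animal, were summed, giving 4 animals against 4. Library factors were median ratios within a group. The difference between groups (0.142 log2) came from a regression of the authors' log2 fold change on the log2 ratio of the deposited means, in the 1432 regions where neither mean was under 50 (slope 0.874). edgeR 4.0.16 under R 4.3.3 (glmQLFit, glmQLFTest, filterByExpr) was fitted on the whole table with Benjamini-Hochberg adjustment at 0.05. The filter left 5326 of 5327 regions, with all members kept. Standard errors are the log2 change divided by the square root of the F statistic. The step was also run on simulated data in which most regions did not change, unlike this table. That run is no check on the calls given here. TMM rests on a majority of unchanged regions, which this table lacks, so it served as an alternative, with DESeq2 1.42.0, a replicate block and leaving out animals. Bins were assigned to 21896 protein-coding gene bodies of RefSeq GRCm38.p6, whose coordinates are those of mm10. Exact intervals (Clopper-Pearson) cover counting error only.

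Members and gene lists were chosen with earlier results of these data known. Full values are given, per gene, for the 2 regions with the lowest authors' change, the most open, the widest, the region nearest to a gene end within 5 kb, and the least changed; for other dyad genes, for the region of largest change. Regions with overlapping groups, neighbouring Trdn regions and single-region paralogs were described after their values were seen.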

Additional observations from a re-analysis of the deposited data

Results flagged for a closer look

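In 6 of 64 groups of 4 animals (32 regions, 2 groups each), the gap between 1 animal and its nearest neighbour took up more of the group's range than Dixon's 95% critical value, which chance alone gives in about 5% of groups. At Jph2 region 12, control 3 had 50.4 scaled reads and the other controls 29.0 to 32.1, with its 2 libraries at 73.8 and 24.9. At Jph2 region 17, which holds the start sites given for the gene, control 4 had 152 scaled reads and the others 207 to 211. At Jph2 region 6, control 4 had 74.2 and the others 66.2 to 66.8. At Jph2 region 8, R1A-deleted animal 4 had 52.8 and the others 43.3 to 44.7. At Trdn region 15, control 2 had 78.6 against 62.7 to 64.0, and R1A-deleted animal 4 had 36.6 against 40.8 to 41.1. The lower call of each of these regions was kept without the animal named.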

How the results depend on the processing

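The 32 member regions kept their direction and their edgeR or DESeq2 call in all 16 alternative fits (512 of 512 comparisons), though all regions had been listed for this difference. With TMM factors or DESeq2's own size factors the members' log2 changes were lower by a median of 0.60, and in the whole table the higher calls moved from 3551 to 988 and 861. With a replicate block the fit called 17 Jph2 and 15 Trdn regions, as without it. Nothing in the labels pairs animals of the same number: their deviations from the group means correlated at -0.04 to 0.26, only 1 of 4 pairs was over 0.1, and 1 control and 1 R1A-deleted animal correlated best with their own number. Leaving out the first library of control 3, an alternative chosen after seeing the data, shifted a member's log2 change by at most 0.33. Leaving out animals gave 17 Jph2, 15 Trdn and from 1770 to 1776 lower and 3549 to 3551 higher calls. Of the animals, control 1 mattered most for the size of change: without it the members' log2 changes shifted by -0.11 to 0.38. Control 1 was the highest control at 9 of 15 Trdn regions. Without it the log2 change of Trdn region 9 went from -1.33 to -0.95. At an authors' adjusted p under 0.01, 9 Jph2 and 6 Trdn regions remained. With genes of any type, 13 regions were nearest to Jph2 and 4 to Trdn. By the midpoint of the merged region instead of the bin, 16 were nearest to Jph2 and 15 to Trdn. Bins inside the gene body numbered 15 at Jph2 and 15 at Trdn. Low read numbers limit the Trdn bins more than the Jph2 bins.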
